A study of Mus musculus with 6 samples.

Results

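The genes examined here drive cell division in the liver: those that load, start and run DNA replication, the cyclins and cyclin-dependent kinases (CDKs) that order the cell cycle, the E2F factors that transcribe replication genes, the mitotic genes and the CDK inhibitors. Members were taken by symbol from the table of raw counts, which gave 53 of the 15454 genes in it. The symbols covered the Mcm, Gins, E2f and D-, E-, A- and B-type cyclin families. From the CDKs and their inhibitors they took Cdk1, Cdk2, Cdk4, Cdk6, Cdkn1b, Cdkn1c and Cdkn2a to Cdkn2d. They also took Cdc6, Cdc20, Cdc45, the Cdc25 genes, Pcna, Rrm1, Rrm2, Tyms, Mki67, Top2a, Foxm1, Birc5 and Plk1. Cdkn1a and Cdk7 were not members and are described with a separate list. A further 3 names, Ccna1, Ccnb3 and Cdc25c, stood only in the table of FPKM and were listed at 0 in every liver there. The 6 libraries came from livers of male wild-type C57BL/6 mice, 8 to 10 weeks old, in which warm ischemia of 75% of the liver was followed by reperfusion. The I/R group (n = 3) received the vehicle solution and the I/R+Rk2 group (n = 3) received ginsenoside Rk2, a saponin of ginseng, in the same vehicle, 2 days before surgery and again as perfusion began. All 6 livers were therefore injured, no sham-operated liver was analysed here, and the dose of Rk2 is not given in the labels.

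Adult hepatocytes rest outside the cell cycle and can re-enter it after injury. In G1, D-type cyclins with Cdk4 or Cdk6, followed by E-type cyclins with Cdk2, phosphorylate the retinoblastoma (RB) family and release E2F factors, which transcribe the replication genes. The MCM helicase is loaded on origins before S phase and is switched on there by Cdc45, the GINS complex and Mcm10. The mitotic genes are transcribed last, and many are held down in resting cells by the DREAM complex, an RB-family repressor in which E2f4 takes part.

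Counts summed to between 16809613 and 35618074 per liver, and 3 counts stood for 0.0888 to 0.184 CPM (counts scaled to a common library total and adjusted by the trimmed mean of M values, TMM). The label of liver held, since the 8 hepatocyte markers summed to 65100 to 75400 CPM in I/R and 98200 to 121000 CPM in I/R+Rk2. Markers of monocytes and neutrophils moved with the groups. All 7 monocyte markers were called lower in I/R+Rk2, with a summed level of 175 to 206 CPM in I/R against 9.65 to 17.2 CPM. All 7 neutrophil markers were called lower, with 473 to 579 against 84.4 to 191 CPM. Other white blood cell lists held fewer calls. Of 6 Kupffer cell markers 1 was called lower, though 0 had a log2 fold change above 0. Their summed level was 55.9 to 87.4 CPM in I/R against 43.4 to 54.8 CPM in I/R+Rk2. Of 2 tested immature neutrophil markers 0 were called, with a median log2 fold change of -0.78. The T and NK cell list had 0 tested genes, so a change there could not be seen. The B and plasma cell list had 1, which was not called. Of the 6 tested erythroid markers 5 were called higher, with 1020 to 1940 against 2470 to 3150 CPM, although Epor stood at or below 0.0888 CPM in every liver and Gata1 and Rhd had no row in the count table. In whole liver, fewer cells of a type and less RNA per cell cannot be told apart, and the part of these cell types in any difference given below was not tested.

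Of the 53 members, 44 passed the filter on low counts and 12 of these (27.3%) were called at an edgeR adjusted p below 0.05, against 43.9% of the 12411 genes tested. Higher in I/R+Rk2 were 4 members (9.09%, against 20.3% of all genes), namely Gins2, Mcm10, Gins4 and Rrm1. Lower were 8 (18.2%, against 23.7%), namely Ccne1, Ccnd3, Ccnd2, Cdk6, Mcm6, E2f4, E2f3 and Pcna. With a fold change above 2 as well, 1 member was higher (3.17% of all genes) and 3 were lower (11.4% of all genes). The 2 groups did not overlap in 18 of the 44 members, against 57.4% of all tested genes (27.1% with I/R+Rk2 higher and 30.3% with it lower). The median log2 fold change of the tested members was 0.07, beside -0.01 for all genes. The called members were split by role: the lower ones held all 4 called G1 cyclins and kinases, and the higher ones held 3 of the 6 helicase activators.

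**Figure D1:**
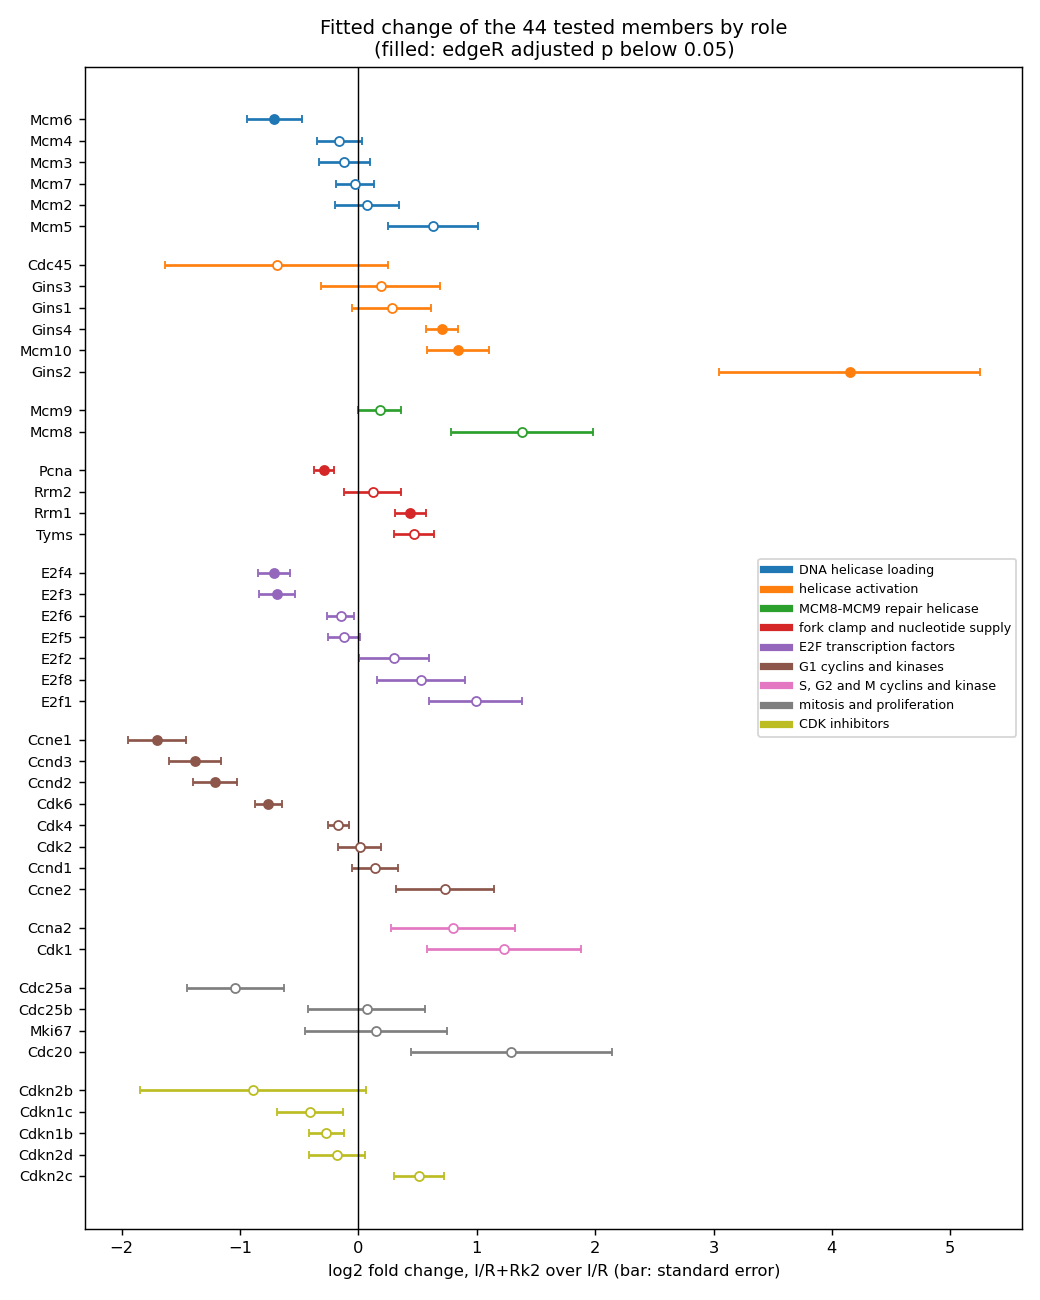
Fitted log2 fold change (I/R+Rk2 over I/R, horizontal axis) of the 44 tested members, grouped and coloured by role, with the standard error as a bar and filled points for an edgeR adjusted p below 0.05. The 4 filled G1 points lie between -1.70 and -0.76, and Gins2, at 4.15, has the widest bar among the called members (standard error 1.1).

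The 9 members left out by the filter were Ccnb1, Ccnb2, Birc5, Plk1, Top2a, Foxm1, E2f7, Cdc6 and Cdkn2a. Most of them are mitotic genes, so the counts of called members say little about mitosis, and their raw counts are given further on. Library scaling matters for this comparison: with library size alone the median over all genes moved from -0.01 to -0.17, and the share of calls that were lower rose from 53.9% to 72.5%. Among the members that scaling gave 3 higher and 8 lower.

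Promoters are shown for 4 members because they carry the elements by which these genes are classed: Mcm6 as a replication gene with E2F motifs, Mcm10 as a called riser without one, and Ccnb2 and Top2a as mitotic genes with CHR (cell cycle gene homology region) and CCAAT motifs. Each line gives the 250 bases before the transcription start from RefSeq (GRCm38.p6, the assembly also called mm10), 5′ to 3′ on the strand of the gene, with motifs of either strand in capitals.
Mcm6 (chr1:128359706-128359955, minus strand): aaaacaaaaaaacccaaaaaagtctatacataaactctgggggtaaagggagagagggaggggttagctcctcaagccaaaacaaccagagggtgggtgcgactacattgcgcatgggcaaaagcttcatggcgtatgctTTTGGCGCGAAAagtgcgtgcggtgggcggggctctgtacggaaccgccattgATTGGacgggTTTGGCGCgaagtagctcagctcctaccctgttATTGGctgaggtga
Mcm10 (chr2:5012792-5013041, minus strand): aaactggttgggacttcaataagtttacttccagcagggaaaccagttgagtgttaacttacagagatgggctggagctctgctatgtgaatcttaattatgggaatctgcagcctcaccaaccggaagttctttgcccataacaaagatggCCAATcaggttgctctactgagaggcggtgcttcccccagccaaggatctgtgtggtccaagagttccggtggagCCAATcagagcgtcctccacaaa
Ccnb2 (chr9:70421555-70421804, minus strand): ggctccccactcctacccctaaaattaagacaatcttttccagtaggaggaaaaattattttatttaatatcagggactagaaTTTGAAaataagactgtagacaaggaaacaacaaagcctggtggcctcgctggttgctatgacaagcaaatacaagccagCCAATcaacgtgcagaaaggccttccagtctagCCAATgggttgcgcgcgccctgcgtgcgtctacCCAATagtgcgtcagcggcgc
Top2a (chr11:99024190-99024439, minus strand): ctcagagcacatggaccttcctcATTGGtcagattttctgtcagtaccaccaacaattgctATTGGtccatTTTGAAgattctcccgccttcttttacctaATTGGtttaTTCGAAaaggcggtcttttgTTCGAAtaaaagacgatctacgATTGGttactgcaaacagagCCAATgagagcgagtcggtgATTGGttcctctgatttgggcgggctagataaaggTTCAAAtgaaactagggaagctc

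The motifs searched were E2F (TTTCCCGC, TTTCGCGC, TTTGCCGC or TTTGGCGC), CHR (TTTGAA or TTCGAA) and CCAAT, on both strands, in the window from 250 bases before to 50 after the start. The Mcm6 promoter held 3 E2F motifs, of which 2 overlap on opposite strands 110 and 106 bases before the start and the third begins 47 bases before it. No E2F or CHR motif was found in these letters for Mcm10, which held 2 CCAAT motifs. Ccnb2 held 1 CHR and 3 CCAAT motifs, and Top2a held 4 CHR and 6 CCAAT motifs. A promoter was found for 41 of the 53 members, 47 promoters in all, since some genes have more than one start. An E2F motif stood in 29.8% of them against 2.26% of all 32851 promoters, a CHR motif in 31.9% against 19.2%, and a CCAAT in 72.3% against 37.4%. E2F motifs were found in 5 of the 7 promoters of the helicase loading genes, and CHR motifs in 5 of the 7 promoters of the mitosis and proliferation genes. These matches describe letters in a window and are not evidence of binding.

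The G1 cyclins and kinases held the most firmly called members. Ccne1 (cyclin E1, chr7:38097984-38107534), the partner of Cdk2 at the entry into S phase, had 2.87, 2.73 and 3.75 CPM with vehicle and 1.09, 0.947 and 0.798 CPM with Rk2. Every I/R+Rk2 liver lay well below every I/R liver, from 3.12 ± 0.551 to 0.946 ± 0.147 CPM (SD, n = 3), a log2 fold change of -1.70 ± 0.246 (standard error, SE; edgeR adjusted p = 0.00217). Its relative Ccne2 (cyclin E2) lay on the other side of 0, with 0.73, 0.312 and 0.518 CPM against 0.757, 0.681 and 1.17 CPM and overlapping groups, a log2 fold change of 0.73 ± 0.415 (SE; adjusted p = 0.193). No test of the difference between the 2 E-type cyclins was made.

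The D-type cyclins, which activate Cdk4 and Cdk6 in early G1, did not move together. Ccnd2 (cyclin D2, chr6:127125162-127152193) had 9.85, 13.9 and 14.2 CPM in I/R and 6.43, 5.0 and 4.97 CPM in I/R+Rk2, with no overlap between the groups. That was a log2 fold change of -1.21 ± 0.188 (SE; edgeR adjusted p = 0.00287). The exons of Ccnd2 share 368 and 372 bases with 9330179D12Rik and Gm43126 on the opposite strand, which have no row in the count table. Ccnd3 (cyclin D3, chr17:47505051-47599691) went from 21.1, 18.1 and 19.0 CPM to 8.74, 5.0 and 8.84 CPM. Its groups were again apart, with a log2 fold change of -1.38 ± 0.223 (SE; edgeR adjusted p = 0.00329). Per length the groups nearly touched, with 11.9 FPKM in the lowest I/R liver and 11.7 FPKM in I/R+Rk2 replicate 1, and limma on log2(FPKM + 1) without a filter did not call it (-0.82, adjusted p = 0.0768). The exons of Ccnd3 share 361 bases with Bysl on the opposite strand and the strand setting of the counting is not stated, so reads there cannot be assigned. With the counts of both genes summed, an alternative chosen after seeing the data, the value was -0.91 (edgeR adjusted p = 0.00746). Bysl was itself called lower (log2 fold change -0.66, edgeR adjusted p = 0.0451), so the sum cannot tell which gene the shared reads came from. Ccnd1 (cyclin D1), the D-type cyclin best known from regenerating liver, had 28.1, 30.8 and 33.8 CPM in I/R and 44.3, 25.5 and 32.3 CPM in I/R+Rk2. I/R+Rk2 replicate 1 was the highest of the 6 livers and replicate 2 the lowest, so the groups overlapped, and the log2 fold change was 0.14 ± 0.197 (SE; adjusted p = 0.594). Without I/R+Rk2 replicate 1 it was -0.11.

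Among the kinases, Cdk6 (chr5:3341485-3531008), a D-cyclin partner that is prominent in blood cells, had 26.5, 24.5 and 27.4 CPM in I/R and 13.6, 16.0 and 16.7 CPM in I/R+Rk2. The livers within a group lay close together and the groups were far apart, with a log2 fold change of -0.76 ± 0.113 (SE; edgeR adjusted p = 0.00244). The exons of Cdk6 share 368 bases with Gm17590 on the opposite strand, which has no row in the count table. Cdk4, the other D-cyclin partner, was the member with the highest level per length, at 30.0 FPKM in I/R and 24.8 FPKM in I/R+Rk2 (fragments per kilobase of transcript, scaled to library depth). In CPM it had 31.2, 27.9 and 29.2 against 26.0, 27.1 and 25.1, which did not overlap but gave a log2 fold change of -0.17 with an adjusted p of 0.144. Cdk2, the partner of the E-type cyclins, had means of 5.97 ± 0.577 and 6.0 ± 1.23 CPM (SD, n = 3), with an adjusted p of 0.957. Thus 4 of the 8 genes of this role (against 23.7% of all genes) were lower, 3 of them over 2-fold (11.4% of all genes) with Ccnd3 counted on its own, and none was higher. Their calls fell beside those of the monocyte and neutrophil markers given above, and whether they came from the same cells was not tested.

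**Figure D2:**
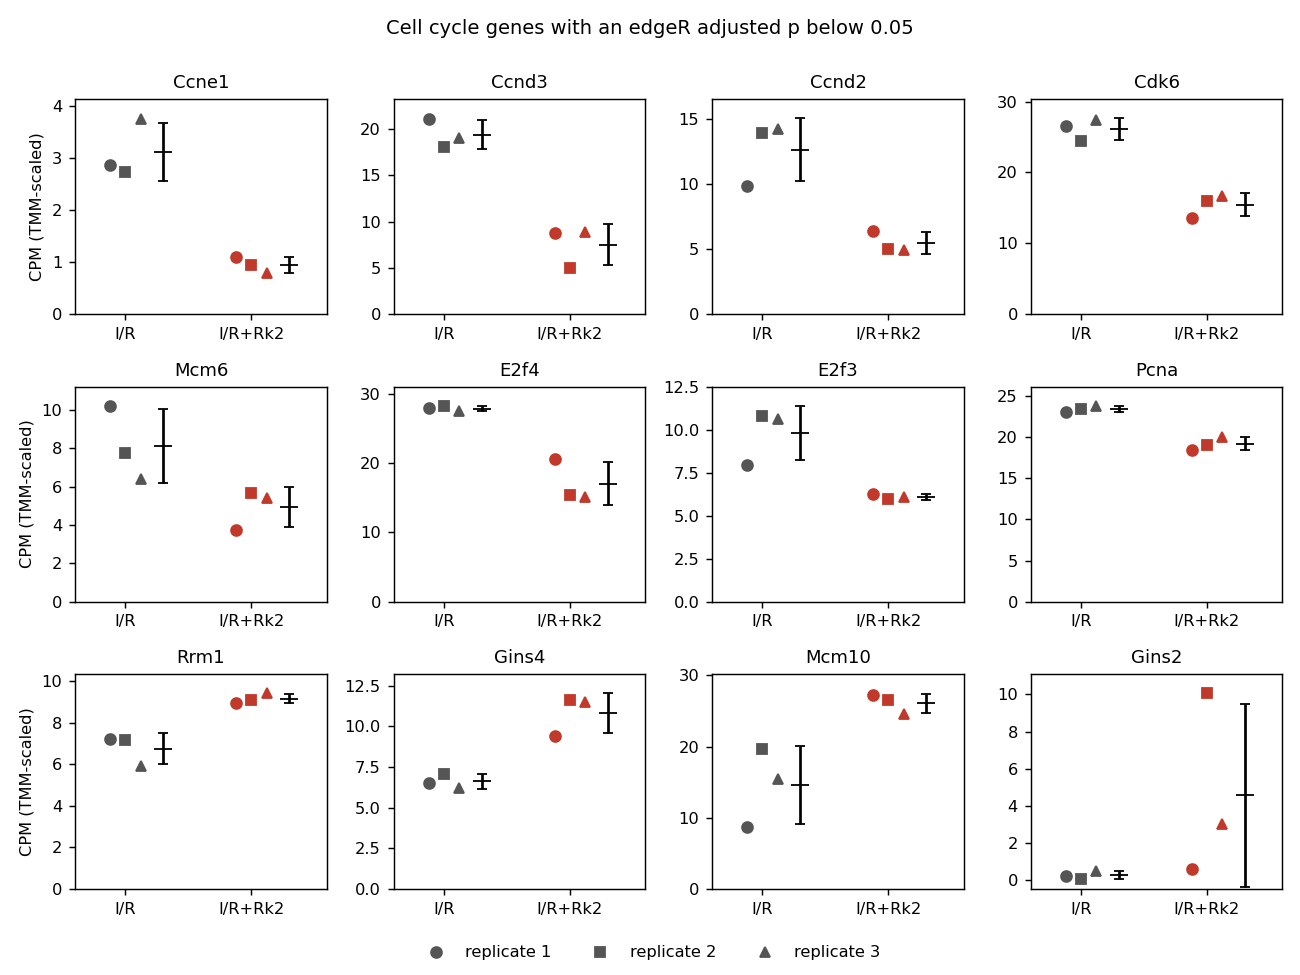
TMM-scaled CPM (vertical axis, from 0 in each panel except Gins2, where the error bar runs below 0) of the 12 called members in each liver, grey for I/R and red for I/R+Rk2, with symbols for replicates 1 to 3 and a black mark and bar for the mean and SD of each group. Ccne1, Ccnd3, Ccnd2 and Cdk6 show separate groups, whereas for Gins2 replicate 2 alone reaches 10.1 CPM.

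Of the E2F factors, 2 of 7 tested were lower (28.6%, near the 23.7% of all genes) and none was higher (20.3% of all genes). E2f4 (chr8:105297663-105305370), the E2F of the DREAM repressor, had 27.9, 28.2 and 27.5 CPM in I/R and 20.6, 15.4 and 15.1 CPM in I/R+Rk2. The I/R livers were nearly equal, and I/R+Rk2 replicate 1 lay between them and the other two, with a log2 fold change of -0.71 ± 0.136 (SE; edgeR adjusted p = 0.00601). E2f3 (chr13:29906575-29986063), an activating E2F, had 7.98, 10.8 and 10.6 CPM against 6.26, 5.95 and 6.08 CPM, without overlap. Its log2 fold change was -0.69 ± 0.151 (SE; edgeR adjusted p = 0.0102), and the call ended (adjusted p = 0.0829) once a trend with gene length was removed.

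E2f1, the classical activator of S phase genes, lay on the other side. It had 0.573, 1.95 and 1.55 CPM in I/R and 2.52, 2.66 and 3.07 CPM in I/R+Rk2, so that all 3 I/R+Rk2 livers were above all 3 I/R livers. With a log2 fold change of 0.99 ± 0.396 (SE; adjusted p = 0.0801) it did not pass the test. E2f2, another activator, overlapped between the groups (log2 fold change 0.30, adjusted p = 0.438), as did the repressors E2f5 (-0.12, adjusted p = 0.519) and E2f8 (0.53, adjusted p = 0.281). E2f8 reached 17.1 CPM in I/R+Rk2 replicate 1 against 5.9 to 9.86 CPM in the other 5 livers. E2f6, a repressor independent of RB, differed by -0.15 on the log2 scale with an adjusted p of 0.331. E2f7, a partner of E2f8, had only 3, 3 and 5 counts in I/R and 10, 13 and 4 in I/R+Rk2 and was not tested.

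The helicase activators held 3 of the 4 members called higher, a side that took 20.3% of all genes. Of the 3, 2 lost the call in some fits with 1 liver left out. Gins4 (chr8:23226616-23237659), a subunit of the GINS complex that joins the MCM helicase and Cdc45 at the fork, was the exception. It had 6.52, 7.1 and 6.22 CPM in I/R and 9.41, 11.6 and 11.5 CPM in I/R+Rk2. The groups did not overlap, with a log2 fold change of 0.71 ± 0.135 (SE; edgeR adjusted p = 0.00582), and the call held in every fit with 1 liver left out.

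Mcm10 (chr2:4989714-5012791), which helps to switch the loaded helicase on, had 8.71, 19.6 and 15.4 CPM in I/R and 27.2, 26.5 and 24.6 CPM in I/R+Rk2. The I/R+Rk2 livers were nearly equal, and the spread lay in the I/R livers. The log2 fold change was 0.84 ± 0.261 (SE; edgeR adjusted p = 0.0362), ranging from 0.59 to 1.11 with 1 liver left out, and 4 of the 6 such fits did not call it (highest adjusted p = 0.0912). Mcm10 stood at 9.42 FPKM in I/R and 18.1 FPKM in I/R+Rk2, above the MCM subunits that it acts upon, which lay between 0.334 and 3.54 FPKM in both groups.

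Gins2 (chr8:120578633-120589304), another GINS subunit, had the largest fitted change of the 44 tested members, and an uneven one. Its counts were 4, 2 and 12 in I/R and 14, 340 and 49 in I/R+Rk2, or 0.209, 0.0781 and 0.478 CPM against 0.588, 10.1 and 3.01 CPM. I/R+Rk2 replicate 2 held 73.7% of the summed CPM of its group, and replicate 1 stood only just above the highest I/R liver. With 4 and 2 counts in I/R replicates 1 and 2, Gins2 passed the filter only through the I/R+Rk2 livers, where it was high. The fitted log2 fold change was 4.15 ± 1.1 (SE; edgeR adjusted p = 0.0206). It was 2.74 without I/R+Rk2 replicate 2 (adjusted p = 0.0599), the lowest of 6 such fits, and leaving out I/R replicate 1 or 2 also ended the call, with adjusted p-values of 0.0713 and 0.0674. With all 6 livers limma on log2(FPKM + 1) without a filter gave 0.72 (adjusted p = 0.214). The exons of Gins2 share 2758 bases with Gse1 on the opposite strand. Gse1 had 262, 243 and 294 counts in I/R and 377, 294 and 155 in I/R+Rk2, so it was not raised in replicate 2. With the counts of both genes summed, an alternative chosen after seeing the data, the log2 fold change was 0.43 with an adjusted p of 0.113. Gse1 made up nearly all of the summed counts in I/R and was itself flat (log2 fold change -0.03, edgeR adjusted p = 0.931). The sum was thus bound to lie nearer to 0, and it cannot tell which gene the shared reads came from.

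The other activators did not pass. Gins1 had means of 1.91 ± 0.569 and 2.27 ± 0.772 CPM (SD, n = 3; adjusted p = 0.529), and Gins3 had between 3 and 16 counts per liver (adjusted p = 0.784). Cdc45, the helicase cofactor, had 3, 27 and 18 counts in I/R and 0, 22 and 9 in I/R+Rk2, and its log2 fold change was -0.69 ± 0.943 (SE; adjusted p = 0.578). It moved between -1.41 and -0.13 with 1 liver left out, the first without I/R+Rk2 replicate 2 and the second without I/R+Rk2 replicate 1.

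The replicative helicase itself showed 1 call among 6 tested subunits (16.7%, against 43.9% of all genes). Mcm6 (chr1:128331590-128359664), whose promoter is printed above, had 10.2, 7.77 and 6.38 CPM in I/R and 3.74, 5.65 and 5.4 CPM in I/R+Rk2. The groups were apart by less than 1 CPM at their nearest livers, and the log2 fold change was -0.71 ± 0.232 (SE; edgeR adjusted p = 0.0417). Only 1 of the 6 fits with a liver left out kept the call, that lacking I/R replicate 3, and the value was -0.51 (adjusted p = 0.136) without I/R replicate 1. With all 6 livers Mcm6 was not called with upper-quartile scaling (adjusted p = 0.0506) or by limma on log2(FPKM + 1) without a filter (adjusted p = 0.0842). The subunits Mcm2, Mcm3, Mcm4, Mcm5 and Mcm7, which with Mcm6 form a single ring, overlapped between the groups and had log2 fold changes of 0.07, -0.12, -0.16, 0.63 and -0.03, with adjusted p-values from 0.216 to 0.906. Cdc6, the loading factor, had 0 to 9 counts per liver and was not tested. Mcm8 and Mcm9, which form a helicase used in DNA repair, did not pass either (log2 fold changes 1.38 and 0.18, adjusted p = 0.1 and 0.455). Mcm8 had 5, 4 and 11 counts against 7, 30 and 18, and was called without I/R+Rk2 replicate 1 (1.76, adjusted p = 0.0314).

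At the fork and in nucleotide supply the calls pointed both ways and were small. Pcna (chr2:132249162-132253314), the sliding clamp of the polymerases, had 23.1, 23.5 and 23.8 CPM in I/R and 18.5, 19.1 and 20.1 CPM in I/R+Rk2, so both groups were tight and apart. The log2 fold change was -0.29 ± 0.0876 (SE; edgeR adjusted p = 0.0329), and only 1 of 6 fits with a liver left out, that without I/R+Rk2 replicate 3, kept the call, with values between -0.31 and -0.27. With all 6 livers it was not called with upper-quartile scaling (adjusted p = 0.062) or by DESeq2 (adjusted p = 0.0655). Rrm1 (chr7:102441695-102469771), the large subunit of ribonucleotide reductase, had 7.19, 7.14 and 5.9 CPM against 8.95, 9.09 and 9.4 CPM. It was higher by 0.44 on the log2 scale (standard error 0.128, edgeR adjusted p = 0.029), and 3 of 6 such fits called it, the call being lost when I/R replicate 3, I/R+Rk2 replicate 2 or I/R+Rk2 replicate 3 was left out. With all 6 livers Rrm1 was not called with library size alone (adjusted p = 0.212) or in the 3 limma fits on FPKM (adjusted p = 0.277 to 0.303). Rrm2, the subunit that limits the enzyme in S phase, had 7.46, 11.1 and 7.06 CPM against 11.9, 8.44 and 7.55 CPM, overlapping, with an adjusted p of 0.699. Tyms, which makes thymidylate, had 3.96, 4.14 and 3.15 CPM against 5.3, 4.88 and 5.4 CPM. Its groups did not overlap, but the log2 fold change of 0.47 ± 0.167 (SE) had an adjusted p of 0.0564.

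**Figure D3:**
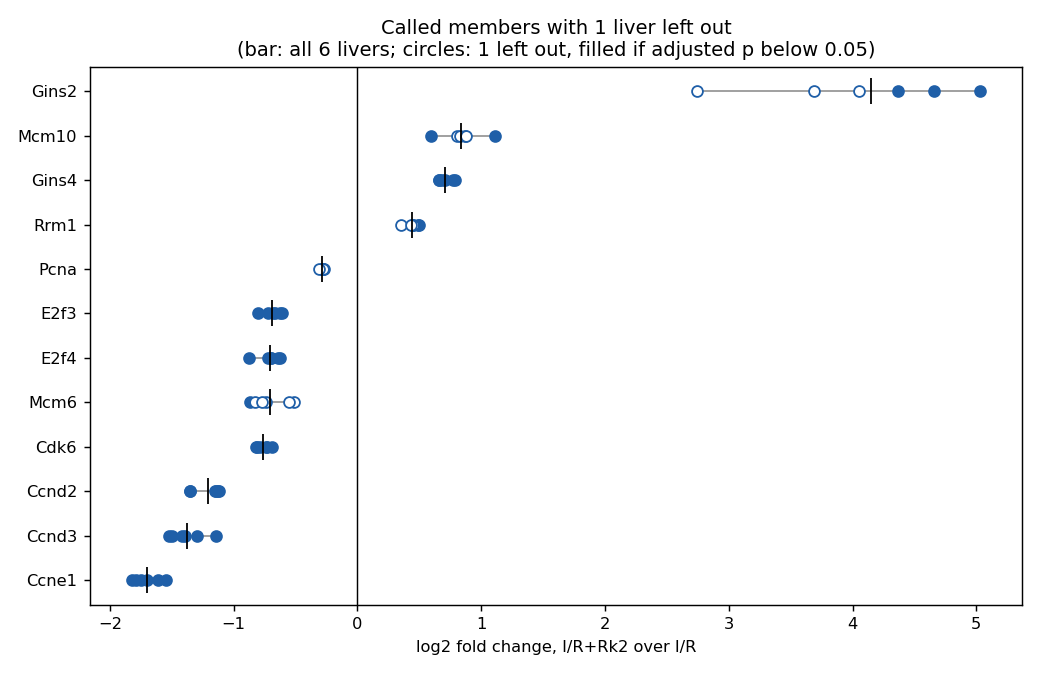
Log2 fold change (I/R+Rk2 over I/R, horizontal axis) of the 12 called members with all 6 livers (vertical bars) and with each liver left out in turn (circles, filled where the edgeR adjusted p stayed below 0.05). Every circle keeps the sign of its bar, and 7 members (Ccne1, Ccnd3, Ccnd2, Cdk6, E2f4, E2f3 and Gins4) have filled circles only.

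The mitotic members were scarce and leaned on a single liver. Of the 12 cyclin A, cyclin B, Cdk1, mitosis and proliferation genes in the count table, 11 had their highest CPM in I/R+Rk2 replicate 3, the exception being Cdc25a. That liver was the highest for 16.0% of all genes in the table and for 18.2% of the 2498 genes whose counts over the 6 livers lay in the range of those 11 (16 to 174). The pattern was noticed after the values were seen. Summed over the 12 genes, the vehicle livers had 10.3, 8.94 and 10.4 CPM, whereas those given Rk2 had 7.99, 8.88 and 19.9 CPM. Much of that sum was Cdc25a, which ran the other way, and without it, an alternative chosen after seeing the data, the sums were 3.55, 3.2 and 5.5 CPM in I/R and 3.66, 6.07 and 18.8 CPM in I/R+Rk2. Replicate 3 was then far above the rest, replicate 2 was just above the highest I/R liver and replicate 1 lay within the I/R range. None of the 6 of these genes that could be tested passed at an edgeR adjusted p below 0.05, against 43.9% of all genes. At an unadjusted p below 0.05 there was 1, Cdc25a, which DESeq2 also called.

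Cdk1, the kinase that drives entry into mitosis, had 21, 7 and 25 counts in I/R and 23, 42 and 56 in I/R+Rk2, and I/R+Rk2 replicate 3 held 60.9% of the summed CPM of its group. The log2 fold change was 1.23 ± 0.647 (SE; adjusted p = 0.162), and it was 0.52 without that liver. Cdc20, the activator of the anaphase-promoting complex, had 11, 5 and 11 counts against 6, 18 and 38, with 74.8% in replicate 3. Its log2 fold change of 1.29 (standard error 0.849, adjusted p = 0.252) went to 0.0352 without that liver. Ccna2 (cyclin A2), a partner of Cdk2 and Cdk1, had 7, 19 and 27 counts against 17, 38 and 35 (log2 fold change 0.80, adjusted p = 0.246). Mki67, the proliferation marker Ki-67, had 10, 8 and 32 counts against 12, 22 and 21. Its log2 fold change was 0.15 ± 0.597 (SE; adjusted p = 0.854), and it reached -0.27 without I/R+Rk2 replicate 3 but 0.94 when the third I/R liver was dropped. Cdc25b, a phosphatase that activates Cdk1, differed by 0.07 (adjusted p = 0.918).

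Ccnb2 (cyclin B2, chr9:70407692-70421547) had 0 counts in all 3 I/R livers but 2, 14 and 27 with Rk2. Against a level of 3 counts in each I/R library it was at least 5.49-fold higher in I/R+Rk2, with 76.9% of the summed CPM in replicate 3 and 2 counts, below that level, in replicate 1. It failed the filter. Without the filter it had an edgeR adjusted p of 0.039, and DESeq2 gave 0.000942. Ccnb1 (cyclin B1) had 0, 3 and 5 counts against 3, 4 and 19, and Plk1, a mitotic kinase, had 0 in every I/R liver against 0, 9 and 7. Top2a (chr11:98992943-99024189), the topoisomerase that untangles chromosomes, had 0, 8 and 0 counts in I/R and 3, 15 and 40 in I/R+Rk2, with 81.2% of the summed CPM in replicate 3. Birc5 (survivin) had 6, 8 and 2 against 7, 16 and 28, and Foxm1, the factor that transcribes mitotic genes, had 2, 10 and 10 against 5, 2 and 15. In each of these 6 genes replicate 3 held over 60% of its group, from 61.7% for Plk1 to 82.7% for Ccnb1. None of the 5 besides Ccnb2 passed without the filter (edgeR adjusted p = 0.101 to 0.875).

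**Figure D4:**
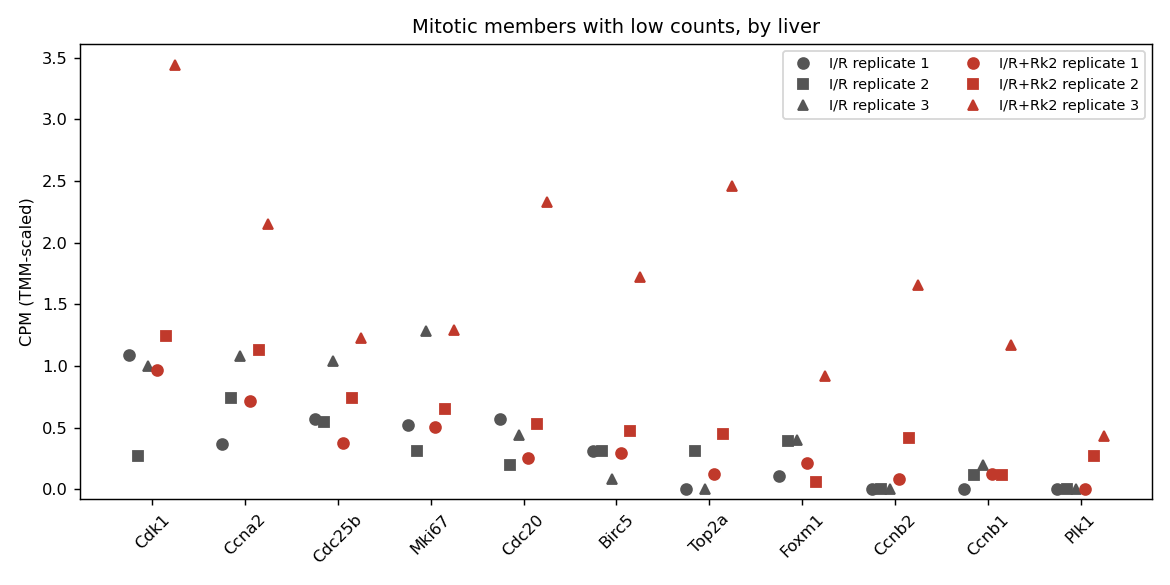
TMM-scaled CPM (vertical axis) of the 11 mitotic members other than Cdc25a in each liver, grey for I/R and red for I/R+Rk2, with circles, squares and triangles for replicates 1, 2 and 3. The red triangles, I/R+Rk2 replicate 3, are the highest point for every gene, up to 3.44 CPM for Cdk1, and for Mki67 I/R replicate 3 lies just under at 1.28 CPM.

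Cdc25a, a phosphatase that frees Cdk2 at the start of S phase, ran the other way. It had 6.73, 5.74 and 4.86 CPM in I/R and 4.33, 2.81 and 1.11 CPM in I/R+Rk2, with replicate 3 the lowest liver of all. The log2 fold change was -1.04 ± 0.411 (SE; adjusted p = 0.0761), and it was called without I/R+Rk2 replicate 1 (adjusted p = 0.0217).

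I/R+Rk2 replicate 3 was also at the end of the range for other values. It had 17816979 counts, the second lowest total, the fewest genes with a count (13587) and the lowest TMM factor (0.9143), while its hepatocyte markers, at 115000 CPM, lay between those of the other I/R+Rk2 livers. Of the 6 livers it had the highest summed erythroid level, 3150 CPM against 3010 and 2470 in replicates 1 and 2, and the lowest neutrophil level, 84.4 CPM against 191 and 105. The part of these in its mitotic values was not tested. The 7 markers of immature neutrophils, a dividing cell type in bone marrow, summed to 1.72 CPM there against 1.51 to 4.39 CPM in the other 5 livers, and Mpo, Camp and Fcnb had no row in the count table.

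The CDK inhibitors among the members showed no call by edgeR or DESeq2 among 5 tested, whereas edgeR called 43.9% of all genes. Of the 5, Cdkn2c alone had an unadjusted edgeR p below 0.05. Cdkn1b (p27), which holds Cdk2 inactive in resting cells, had 19.0, 15.1 and 17.3 CPM in I/R and 11.9, 14.5 and 16.1 CPM in I/R+Rk2, overlapping, with a log2 fold change of -0.27 and an adjusted p of 0.174. Cdkn2c (p18), an inhibitor of Cdk4 and Cdk6, had 5.06, 3.04 and 4.07 CPM against 5.17, 6.1 and 5.96 CPM. Its groups were apart by a small margin, the log2 fold change was 0.51 ± 0.21 (SE; adjusted p = 0.0878), and it was called without I/R replicate 1 (0.70, adjusted p = 0.046). Cdkn1c (p57) and Cdkn2d (p19) differed by -0.41 and -0.18 on the log2 scale, with adjusted p-values of 0.265 and 0.578. Cdkn2b (p15) had 8, 7 and 15 counts against 13, 0 and 3, a log2 fold change of -0.89 ± 0.958 (SE; adjusted p = 0.483), which became -2.64 without I/R+Rk2 replicate 1 and -0.16 once replicate 2 was dropped. Cdkn2a had 2 counts in 1 I/R+Rk2 liver and 0 elsewhere.

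Counted over all roles, 17 members met at least 1 of the marks of dependence on a single liver. These marks were not counted over all genes, so whether they are more frequent among the members cannot be told. In 10 the highest liver held over 60% of the summed CPM of the higher group, 5 lost their call when 1 liver was left out, and in 6 the fold moved by over 1.5 times. The 5 that lost it were Gins2, Mcm10, Rrm1, Mcm6 and Pcna, and of these Gins2 alone also met the other 2 marks. A fit with 5 livers has less power than one with 6, and over all genes such fits called between 3933 and 5459 genes, against 5454 with 6 livers. A further 10 tested members (Ccna2, Ccne2, Cdc20, Cdc25b, Cdc45, Cdk2, Cdk4, E2f5, Mcm7 and Mcm9) share 26 to 1748 exon bases with an opposite-strand gene of the count table. None of them was called, against 43.9% of all genes.

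The rest of the replication pathway was described from a separate list. Of 41 tested genes for origin licensing, polymerases, clamp loading and nucleotide supply, 16 (39.0%) were higher and 2 (4.88%) were lower, against 20.3% and 23.7% of all genes, with a median log2 fold change of 0.39. The count of higher genes fell to 8 when I/R replicate 3 was left out, to 8 again when it was I/R+Rk2 replicate 2, and to 9 with library size alone. Rpa3, a subunit of the protein that coats single-stranded DNA, rose from 2.09, 2.58 and 2.27 to 4.41, 4.77 and 4.73 CPM (edgeR adjusted p = 0.00398). Orc2, a subunit of the origin recognition complex on which the MCM ring is loaded, went against the list. It fell from 8.45, 8.55 and 7.18 to 3.28, 2.63 and 2.76 CPM, or by 1.48 on the log2 scale (edgeR adjusted p = 0.000834).

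Of 36 further mitosis genes only 14 could be tested, and 4 of these (28.6%, against 20.3% of all genes) were higher and 0 were lower (23.7% of all genes) by edgeR. DESeq2 also called 0 lower, and 0 had an unadjusted edgeR p below 0.05 on that side. Cks2, a small subunit of CDKs, went from 7.46, 7.26 and 7.06 to 12.9, 16.0 and 15.0 CPM (log2 fold change 1.01, edgeR adjusted p = 0.00124). Mad2l1, of the spindle checkpoint, rose by 0.92 (adjusted p = 0.00693) whereas Pttg1 (securin), at 0.73 (adjusted p = 0.045), kept its call in only 1 of 6 fits with a liver left out and lost it with library size alone and in the limma fits. The count of higher genes was 2 when any of I/R replicate 2, I/R+Rk2 replicate 2 and I/R+Rk2 replicate 3 was dropped. Among the 33 of these genes in the count table, 24 had their highest CPM in I/R+Rk2 replicate 3 (72.7%, against 16.0% of all genes), and they summed to 78.4, 61.3 and 64.5 CPM in I/R and 102, 99.4 and 111 CPM in I/R+Rk2. All 3 I/R+Rk2 livers lay above all 3 I/R livers in that sum, as they did for 27.1% of all tested genes taken singly. Such a sum is weighted to the genes with the highest levels, such as Cks2, and does not speak for each gene.

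**Figure D5:**
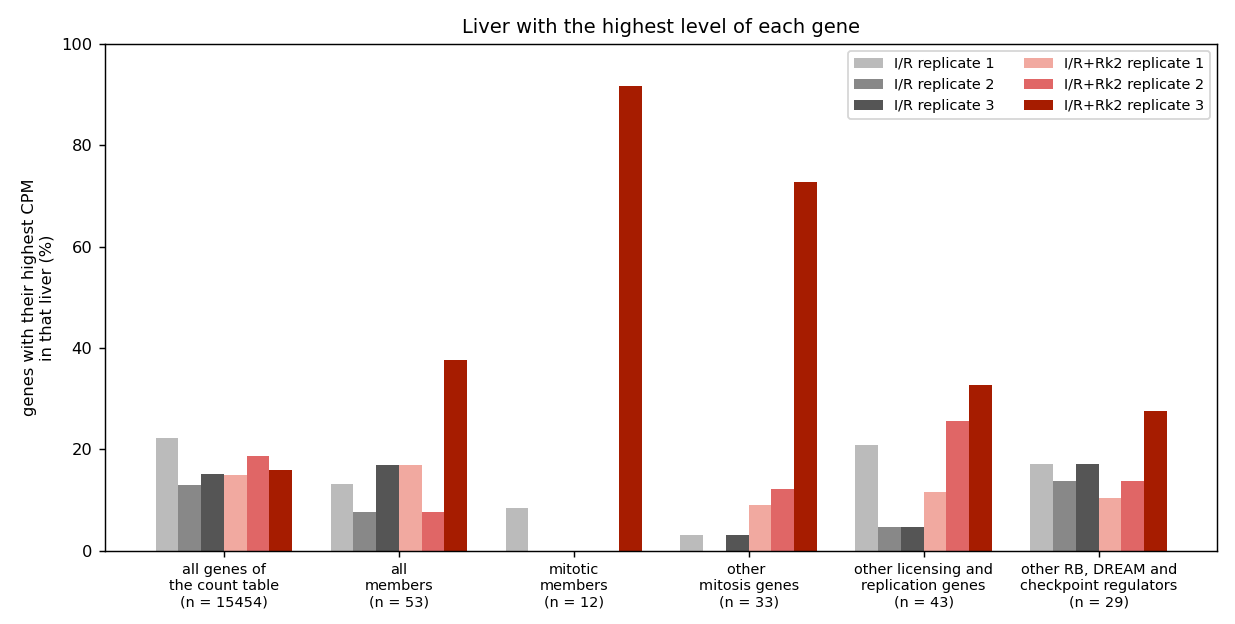
Percent of genes (vertical axis) whose highest TMM-scaled CPM was in each of the 6 livers, for all genes of the count table, the 53 members, the 12 mitotic members and 3 lists of other cell cycle genes, grey bars for I/R and red bars for I/R+Rk2. I/R+Rk2 replicate 3 takes 91.7% of the mitotic members and 72.7% of the other mitosis genes, against 16.0% of all genes.

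Of 27 tested regulators around RB, the DREAM complex and the checkpoints, 4 (14.8%) were higher and 3 (11.1%) were lower, against 20.3% and 23.7% of all genes, with a median log2 fold change of -0.09. The number higher was 1 without I/R replicate 3, and it was 2 once I/R+Rk2 replicate 2 was dropped. Those higher were Rbbp4 (log2 fold change 0.54, edgeR adjusted p = 0.00823), Tob1 (0.90, adjusted p = 0.0152), Rbl2 (0.70, adjusted p = 0.0161) and Chek2 (2.21, adjusted p = 0.0345). The 3 lower were Cdk7, Myc and Btg2, which had the smallest p-values of the list. Cdk7, the kinase that activates other CDKs, went from 20.7, 19.9 and 20.9 to 13.3, 11.5 and 11.3 CPM (log2 fold change -0.77, edgeR adjusted p = 0.00192). Myc, a driver of growth and of G1 entry, went from 27.5, 31.6 and 36.8 to 19.2, 20.3 and 19.9 CPM (-0.69, adjusted p = 0.00438), and the antiproliferative Btg2 differed by -1.36 (adjusted p = 0.00533). Cdkn1a (p21), the CDK inhibitor induced by p53, had 79.4, 80.5 and 70.3 CPM in I/R and 68.6, 74.3 and 73.7 CPM in I/R+Rk2. Its groups overlapped and its log2 fold change was -0.09 ± 0.0881 (SE; adjusted p = 0.448).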

How the data were processed

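RNA from 6 mouse livers, 250 ng each, was made into libraries with an MGI kit and sequenced. The submitters' processing notes name FastQC 0.11.5, HISAT2 2.2.1 and StringTie 1.3.3 and the mm10 build, and the annotation, counting tool settings and strand are not given in the sources used here. The authors deposited whole-number counts per gene (15454 rows) and FPKM, which they normalized for length and depth (21948 rows). A pseudocount of 1 or 0.1 was added to FPKM for the log2 scale. Low counts may have been rounded up from StringTie estimates.

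The count test was edgeR 4.0.16 under R 4.3.3 (filterByExpr defaults, TMM, quasi-likelihood F test, no covariates, all 6 livers). P-values were adjusted by Benjamini-Hochberg over the 12411 genes tested, and a gene was called at an adjusted p below 0.05, two-sided. On simulated counts for 12256 genes in this comparison, 54.6% of 97 genes changed by 1 on the log2 scale and 90.0% of 100 changed by 2 were recovered. Of the simulated calls 6.54% were false. The simulation changed no other genes, whereas 43.9% of genes were called in the livers, so the recovery there may differ. DESeq2 1.42.0, limma 3.58.1 on log2(FPKM + pseudocount), other scalings, filters, a replicate block, removal of the length trend, counts lowered by 1 and leaving out each liver were alternatives. Standard errors were the absolute log2 fold change divided by the square root of F.

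Gene positions came from GENCODE M21 (GRCm38) and promoters from RefSeq. The 21 rows with a date in place of a gene name stayed in every fit. Pairs of libraries within a group differed by a chi-square per degree of freedom of 31.4 to 74.8, far above sampling noise. Whether mice of a group were treated in one session is not stated. Total counts ran from 16809613 to 35618074 per liver, and limits from counts cover counting error only.

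The members, their roles, the other gene lists and the alternatives were chosen with earlier results of these data known. Every member could be named. Full statistics were set for members called and members that 1 liver drove (over 60% of the summed CPM of the higher group, a call ended or a fold moved over 1.5 times without 1 liver), and up to 3 genes with the smallest p were named from each other list, with Cdkn1a. The regulators called higher were named in addition, so that both directions of that list are shown. A gene of these lists that is not named was still part of all fits and counts.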

Additional observations from a re-analysis of the deposited data

How the results depend on the processing

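Of the log2 fold changes of the 44 tested members under the alternatives (748 values), 667 kept their direction and side of the threshold, 35 lost a call, 9 gained one and 37 changed sign. The sign changes all belonged to genes that were not called. With library size alone they were Mcm2 (-0.0985), Rrm2 (-0.0244), Ccnd1 (-0.0125), Cdk2 (-0.14) and Cdc25b (-0.084), and with upper-quartile scaling Mcm7 (0.026). With at least 10 counts in every sample and with the replicate block, Cdk2 was -0.00238 and -0.000731. With limma on log2(FPKM + 1) without a filter they were Mcm2 (-0.0766), Gins3 (-0.00558), Rrm2 (-0.00542), Ccnd1 (-0.0473) and Cdk2 (-0.0839), with a mean FPKM of at least 1 Rrm2 (-0.00542), Ccnd1 (-0.0473) and Cdk2 (-0.0839), and with a pseudocount of 0.1 Rrm2 (-0.00724), Ccnd1 (-0.0566) and Cdk2 (-0.12). Leaving out 1 liver gave ranges of -0.12 to 0.27 for Mcm2, -0.26 to 0.0485 for Mcm3, -0.13 to 0.10 for Mcm7, -0.0396 to 0.51 for Gins1, -0.19 to 0.49 for Gins3, -0.10 to 0.36 for Rrm2, -0.11 to 0.31 for Ccnd1, -0.14 to 0.16 for Cdk2, -0.33 to 0.44 for Cdc25b and -0.27 to 0.94 for Mki67.

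Members called higher numbered 2 in each of the 3 limma fits on FPKM, and 1 to 4 with 1 liver left out. With a fold above 2 there were 2 higher without the filter and with DESeq2, 0 with at least 10 counts in every sample and in the 3 limma fits, and 0 to 2 with 1 liver left out. Members called lower numbered 6 to 7 with 1 liver left out, and with a fold above 2 there were 0 lower in both limma fits with a pseudocount of 1. The median of the members was 0.12 with upper-quartile scaling, -0.09 with library size alone, 0.16 without the filter, -0.13 with at least 10 counts, 0.18 with DESeq2, 0.00 and -0.21 with limma without and with the FPKM filter, -0.27 with a pseudocount of 0.1, and -0.08 to 0.15 with 1 liver left out. Other licensing and replication genes called higher numbered 9 with library size alone, 6, 7 and 7 with limma, and 8 to 15 with 1 liver left out. Other mitosis genes called higher numbered 2 with library size alone, 1 in each limma fit and 2 to 6 with 1 liver left out, and the regulators called higher numbered 2 in each limma fit and 1 to 4. The limma fits on FPKM placed 69.5% to 72.8% of all calls on the lower side against 53.9%. The causes were not tested.

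With the replicate number as a block, 3 members were called higher, 7 lower, and 10 other licensing and replication genes higher, Mcm6, Pcna and Rrm1 having lost their call and Cdc25a gained one (adjusted p = 0.041). The numbers carry no known pairing: deviations of same-numbered livers correlated at -0.0559, 0.00522 and -0.0579 across genes. The filter on low counts left 9 members untested.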
